A study of Rattus norvegicus with 47 samples.

Results

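Whole blood taken 6 h after occlusion of the middle cerebral artery (MCA) was compared with blood taken from the same rats before anaesthesia, called 0 h. The 0 h group held 8 arrays and the 6 h group 7, because no 6 h sample of rat 3 is among the labels, and these 15 arrays are part of a series of 47 that covers 6 time points. All 27596 probe sets of the array were compared. The animals were male spontaneously hypertensive rats (SHR), 16 weeks old, a strain with inherited high blood pressure, in which a silicon-coated thread closed the artery under isoflurane and was later withdrawn, so that the occlusion was transient. Blood at 0 h and at 6 h came from the tail vein into heparin, and RNA was made from the pelleted cells in PAXgene solution. No rats with sham surgery are among the samples, so the stroke, the operation, the anaesthetic, repeated bleeding and the time of day cannot be told apart in any difference given here.

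Blood RNA comes from red cell precursors and reticulocytes, from platelets, and from white cells, of which neutrophils and lymphocytes are the main kinds in the rat. Neutrophils are short-lived cells that carry ready-made granules of proteases and antimicrobial proteins and leave the marrow within hours of injury or stress, while glucocorticoids and adrenergic signals move lymphocytes and monocytes out of the circulation. A type I interferon response, in which transcription factors switch on antiviral genes such as Mx1, is a further programme that white cells can run. Because whole blood was measured, fewer cells of a type and less RNA per cell of that type cannot be told apart.

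The values are log2 signals of the RaGene 1.0 ST array after robust multi-array averaging (RMA), and each is given as the authors' mean ± the deposited SD over the arrays of a time point. The columns of single arrays carry no name that ties them to a rat or a time point, so the spread between arrays is shown by these SDs alone. A probe set is said to have risen or fallen where limma's moderated test, rebuilt from each group's mean, SD and number of arrays, gave a false discovery rate (FDR, Benjamini-Hochberg over all probe sets) below 0.05, and differences are 6 h minus 0 h on the log2 scale unless another pair is named.

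At 6 h, 5580 probe sets were higher than at 0 h (20.2% of those tested) and 5060 were lower (18.3%). Which direction held more probe sets depended on the scaling and on dim probe sets, since 4162 were higher and 5545 lower with means centred on their median, 4323 and 4585 after quantile normalization, and 4549 and 4911 with the dimmest 25% left out. Most of these differences were small. Their median size was 0.34, and 7519 of the 10640 (70.7%) were under 0.5. A difference of at least 1, which is a doubling or a halving of the signal, was found in 399 rises and 292 falls, and a difference of at least 2 in 76 rises and 6 falls. The median difference over all probe sets was 0.05, and the median SD was 0.14 at 0 h and 0.15 at 6 h. The 95% interval of a difference reached 0.16 to either side in the median probe set. In the 25% of probe sets with the lowest signal, 1187 were higher and 248 lower with a median difference of 0.08, and in the 25% with the highest signal 1387 were higher and 2462 lower with a median of -0.10. Beside a small rise of a dim probe set, the median of 0.08 of dim probe sets has to be kept in view.

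**Figure D1:**
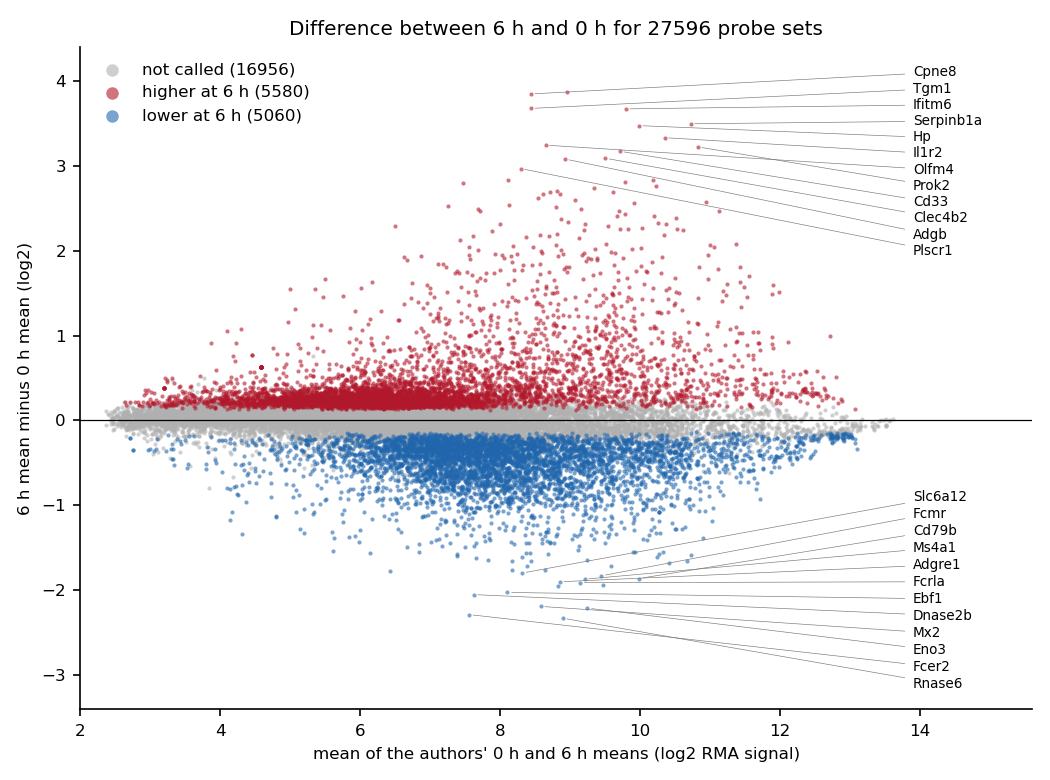
Each point is a probe set, with the mean of its 0 h and 6 h means (log2 RMA signal) on the x axis and the 6 h mean minus the 0 h mean (log2) on the y axis. The 5580 red points were higher and the 5060 blue points lower at an FDR below 0.05, grey points were not called, and the labelled rises reach further from 0 than the labelled falls.

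The marker genes of the blood cell types were measured first. All 4 neutrophil markers were higher at 6 h, among them Cxcr2, the receptor for neutrophil-attracting chemokines, at 11.10 ± 0.34 before and 12.70 ± 0.10 at 6 h. All 4 B cell markers and all 5 T cell markers were lower. Of the NK cell markers 4 were lower and Ncr1 was higher by 0.34, and of the monocyte markers Csf1r and Cx3cr1 were lower and Ccr2 was higher, in a probe set annotated to more than 1 gene. None of 4 platelet markers and none of the 4 measured erythroid markers was called, and the haemoglobin gene Hbb stood at 13.50 ± 0.12 and 13.52 ± 0.10. Of 4 brain genes none was called, and of 5 genes of other tissues Col1a1 and Acta1 were higher by 0.23 and 0.21.

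Among the largest rises at 6 h, Cpne8 encodes copine 8, a calcium-dependent phospholipid-binding protein, and went from 6.51 ± 0.31 to 10.36 ± 0.11, a difference of 3.85 (95% interval 3.61 to 4.08, FDR = 4.38e-14) or 14.4-fold. It spans chr7:131300054-131472890 of rat assembly rn5, minus strand. Serpinb1a, an inhibitor of the neutrophil serine proteases, went from 8.97 ± 0.29 to 12.47 ± 0.05, which is 11.3-fold higher. Il1r2, the decoy receptor that binds interleukin 1 without signalling, went from 8.68 ± 0.27 to 12.01 ± 0.13 (chr9:46526298-46566513, plus strand) and was 10.1-fold higher (FDR = 4.42e-14). Hp, the haemoglobin-binding protein haptoglobin, was 11.1-fold higher, from 8.24 ± 0.37 to 11.72 ± 0.17. In these 4 genes the difference was 9.31 to 12.4 times the larger of the 2 SDs.

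Tgm1, a transglutaminase best known from the skin, went from 6.60 ± 0.32 to 10.28 ± 0.51 and was 12.8-fold higher. Ifitm6, a myeloid member of the interferon-induced transmembrane family, went from 7.96 ± 0.51 to 11.63 ± 0.27 and was 12.7-fold higher. Olfm4, a protein of neutrophil specific granules, went from 7.02 ± 0.47 to 10.27 ± 0.57, and Prok2, a secreted peptide that neutrophils make, from 9.21 ± 0.32 to 12.43 ± 0.11. The sialic acid-binding receptor Cd33 rose by 3.17 (95% interval 2.91 to 3.44), the C-type lectin Clec4b2 by 3.09 (2.81 to 3.37) and the phospholipid scramblase Plscr1 by 2.97 (2.72 to 3.22). Adgb, which encodes the globin-like protein androglobin, rose by 3.08 (2.73 to 3.43) from 7.38 ± 0.49 to 10.46 ± 0.14. A probe set without a gene symbol on chr3:84642926-84689096 (rn5, plus strand) had the highest rise of all, 3.87, from 7.02 ± 0.63 to 10.89 ± 0.13.

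The largest falls were shallower and held many B cell genes. Rnase6, a secreted ribonuclease of the RNase A family, fell by 2.33 (FDR = 1.03e-09) from 10.06 ± 0.24 to 7.73 ± 0.44, which is 5.03-fold lower (chr15:31891330-31891791, plus strand). Fcer2, the low-affinity IgE receptor CD23 of B cells, fell from 8.70 ± 0.22 to 6.41 ± 0.23 and was 4.88-fold lower (FDR = 7.99e-12). Ebf1, a transcription factor that B cells depend on, fell from 9.12 ± 0.50 to 7.09 ± 0.21 in the probe set at its start and by 1.95 in a further one along the gene. Fcrla, an Fc receptor-like protein inside B cells, fell by 1.91, and Ms4a1, which encodes CD20, by 1.87. Cd79b, a signalling chain of the B cell receptor, fell by 1.86, and the IgM receptor Fcmr by 1.83.

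Of the falls in genes that are not B cell genes, Eno3, the muscle form of the glycolytic enzyme enolase, went from 10.35 ± 0.16 to 8.14 ± 0.16 and was 4.63-fold lower. Mx2, an interferon-induced antiviral GTPase, went from 9.67 ± 0.14 to 7.48 ± 0.15 (4.56-fold lower, FDR = 2.56e-13). Adgre1, the F4/80 antigen of monocytes and macrophages, fell by 1.90 from 9.80 ± 0.25 to 7.90 ± 0.33. Dnase2b, a lysosomal deoxyribonuclease, fell by 2.05, and Slc6a12, a betaine and GABA transporter, by 1.80. The probe set of Fcer2 has no position in the deposited annotation.

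**Figure D2:**
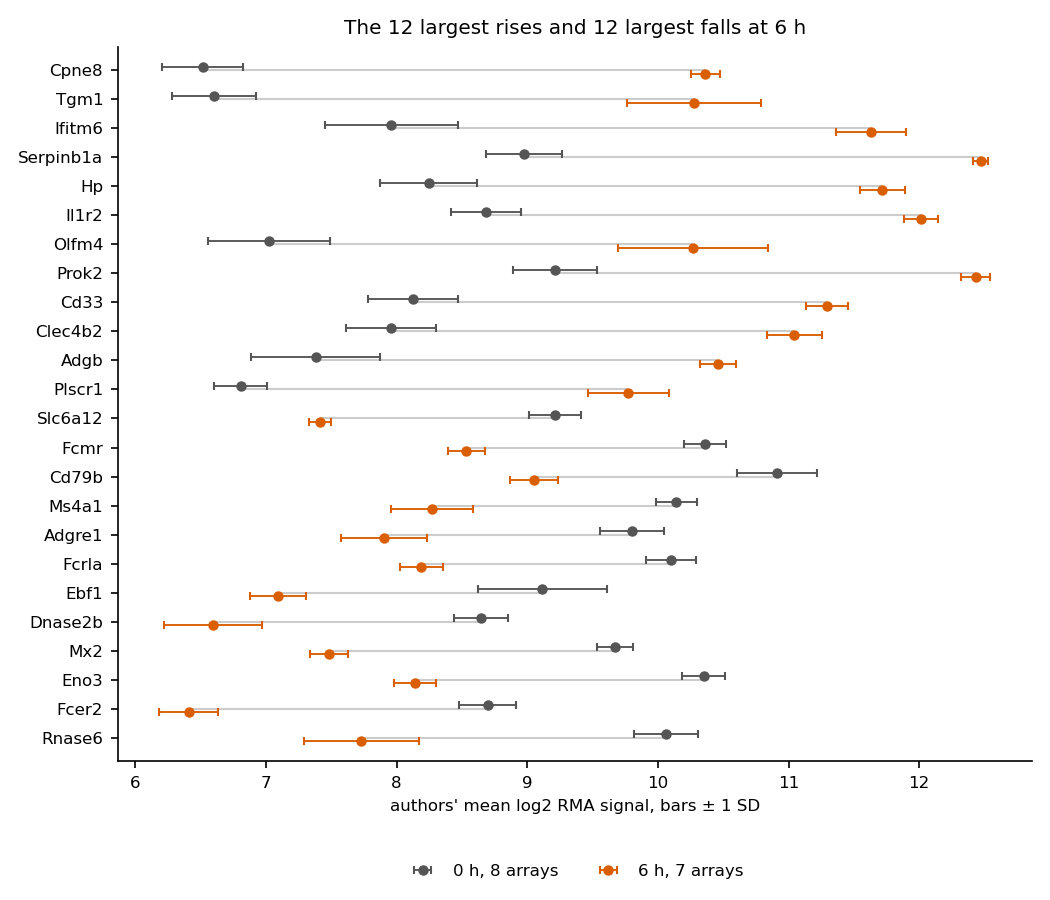
The authors' mean log2 RMA signal (x axis, bars 1 SD) is drawn for the 12 largest rises and the 12 largest falls among probe sets with a single, non-provisional gene symbol, 1 per gene, grey at 0 h (8 arrays) and orange at 6 h (7 arrays). The SD bars of the 2 time points do not overlap in any of the 24 genes, from Cpne8 with a rise of 3.85 to Rnase6 with a fall of 2.33.

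Gene lists by cell type and pathway are described by the number of members that rose or fell, to be read against 20.2% and 18.3% of all probe sets, and by their median difference, to be read against 0.05. Each gene enters with the probe set of highest mean signal. Some genes stand in more than 1 list. Counts of 2 members or fewer moved with the scaling or the variance estimate in several lists. Some larger counts moved too, among them the falls in the respiratory chain, sterol, SOCS and oxidase lists.

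Genes of neutrophil granules moved unequally. Of 23 members 15 rose, 1 fell and 7 were not called, with a median of 0.34, which went to 0.67 when the dimmest 25% of probe sets were left out. The members with the largest rises after Hp and Olfm4 were Lcn2, the siderophore-binding protein lipocalin 2, from 8.37 ± 0.54 to 11.19 ± 0.71, Slpi, a protease inhibitor, from 8.84 ± 0.22 to 11.61 ± 0.19, Mmp25, a membrane-bound metalloprotease, from 7.46 ± 0.30 to 10.16 ± 0.38, and Mmp9, gelatinase B, by 2.43 (SDs 0.42 and 0.27). Cd177, a surface protein of neutrophils, rose by 1.83 and Pglyrp1, a peptidoglycan-binding protein, by 1.81. Of genes for proteins of the primary granules, Mpo, myeloperoxidase, stood at 6.19 ± 0.10 and 6.35 ± 0.14 (FDR = 0.066), Prtn3, proteinase 3, at 6.27 ± 0.11 and 6.28 ± 0.17 (FDR = 0.98), and Ctsg, cathepsin G, at 5.70 ± 0.09 and 5.80 ± 0.09 (FDR = 0.17). Elane, neutrophil elastase, rose by 0.34. Ltf and Ngp, both of secondary granules, were not called either, with differences of 0.06 and 0.03. The 1 member that fell was Ceacam1, an adhesion molecule, from 9.82 ± 0.20 to 8.98 ± 0.18.

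In the list of neutrophil receptors, which also holds other proteins typical of the cell such as Prok2 and Alox5ap, 23 of 27 measured members rose and 3 fell, with a median of 1.48, the highest of the 36 lists. Beside Il1r2 and Prok2, Fpr1, the receptor for bacterial formyl peptides, went from 9.90 ± 0.50 to 12.37 ± 0.09. Alox5ap, which hands arachidonic acid to 5-lipoxygenase, went from 9.21 ± 0.23 to 11.52 ± 0.10. Csf2rb, the shared receptor chain for GM-CSF, IL-3 and IL-5, rose by 2.27, Mcemp1 by 2.18, Csf3r, the G-CSF receptor, by 1.95 and the lectin Clec4e by 1.79. The 3 that fell were Pilra by -0.52, Trem3 by -0.41 and Tlr4, the lipopolysaccharide receptor, by -0.26, and Cd300lf was not called.

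In the interleukin 1 and interleukin 18 family 8 of 16 members rose and 3 fell. Among the receptors, Il1rap, the accessory chain, went from 8.77 ± 0.30 to 11.60 ± 0.19, Il18rap, the accessory chain of the IL-18 receptor, from 8.47 ± 0.25 to 10.54 ± 0.25, and Il1r1, the signalling IL-1 receptor, from 6.53 ± 0.21 to 8.58 ± 0.33. Nlrp3, the sensor of the inflammasome, rose by 1.46. The ligand Il1b rose by 0.92 and the receptor antagonist Il1rn by 0.77. Il1a and Il18 were not called, at 0.14 (FDR = 0.19) and -0.17 (FDR = 0.31). Il1rl1, the receptor for IL-33, fell by 1.28, and Sigirr and Casp1, an inhibitory receptor and the protease that matures IL-1 beta, fell by 0.57 and 0.43. The median of this list was 0.16 and went to 0.47 when the dimmest probe sets were left out.

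In the list of the NADPH oxidase, nitric oxide and arginine pathways 11 of 20 rose, 3 fell (5 with variances pooled over the 6 time points) and the median was 0.30. Nos2, the inducible nitric oxide synthase, went from 7.77 ± 0.23 to 10.37 ± 0.31 and Ass1, which regenerates arginine, from 7.44 ± 0.28 to 8.89 ± 0.22. The cytosolic subunits Ncf4 and Ncf1 of the oxidase rose by 1.17 and 0.92, while the membrane subunit Cybb fell by 0.37 and Cyba was not called at 0.28 (FDR = 0.050). Gclc and Sod1, which make glutathione and remove superoxide, fell by 0.55 and 0.29. In the eicosanoid list 8 of 18 rose, 1 fell and the median was 0.19. The leukotriene enzymes Alox5 and Lta4h rose by 1.31 and 1.15, the thromboxane synthase Tbxas1 by 1.04 and the inducible cyclooxygenase Ptgs2 by 0.93. Ptgs1, the constitutive form, was not called at -0.11 (FDR = 0.51), nor were Ltc4s and Ptges, and the fall was that of Ptges3, by 0.66.

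Metalloproteases and their partners rose in 15 of 20 members, fell in none and had a median of 0.46. After Mmp25 and Mmp9 the largest differences were those of the sheddase Adam8, from 7.99 ± 0.19 to 9.49 ± 0.17, the urokinase receptor Plaur, from 8.36 ± 0.38 to 9.60 ± 0.19, and Adam19 and Adam9, which rose by 1.22 and 1.13. The inhibitor Timp1 rose by 0.78. Among selectins, integrins and their ligands 7 of 16 measured members rose and 6 fell. P-selectin, Selp, went from 6.70 ± 0.22 to 8.10 ± 0.27, and Itgam, the alpha chain of Mac-1, rose by 1.12. Itga4 and Itgal, the alpha chains of VLA-4 and LFA-1 that lymphocytes use, fell by 1.07 and 0.50.

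Genes of glycolysis and the hypoxia response rose in 22 of 29 measured members and fell in 1, Pfkp by 0.23, with a median of 0.43. Slc2a3, the glucose transporter GLUT3, went from 7.54 ± 0.24 to 10.06 ± 0.29, Hk2 and Hk3, hexokinases, rose by 1.95 and 1.62, and Pfkfb3, which drives glycolytic flux, by 1.40. The lactate exporter Slc16a3, the glycogen phosphorylase Pygl and the transporter Slc2a1 rose by 1.06, 1.03 and 0.96. Typical hypoxia targets gave mixed values, as Adm, adrenomedullin, was not called at 0.04 (FDR = 0.73) and neither was Pdk1 at -0.11 (FDR = 0.57). In the list of iron handling and metallothioneins 9 of 17 rose, 1 fell and the median was 0.20. Beside Hp and Lcn2, the metalloreductase Steap4 rose by 1.92 and the phagosomal transporter Slc11a1 by 0.82. The metallothioneins Mt1a and Mt2A rose by 0.59 and 0.58, and Tfrc, the transferrin receptor, fell by 0.56. The ferritin chains Fth1 and Ftl1 were not called, at 0.00 and -0.06.

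B cell genes fell in 22 of 26 measured members, none rose, and the median was -1.16, the lowest of any list. Cd79a, which pairs with Cd79b in the B cell receptor, went from 10.43 ± 0.19 to 8.50 ± 0.13. Not every gene of the lineage moved. Pax5, the factor that fixes B cell identity, was not called at -0.12 (9.20 ± 0.09 and 9.08 ± 0.17, FDR = 0.19), nor were the kinase Btk at -0.08, Cxcr5 at -0.19 and Tnfrsf13b at 0.00.

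T cell genes fell in 31 of 32 measured members, none rose, and the median was -1.01. The helper cell receptor Cd4 went from 10.67 ± 0.10 to 9.12 ± 0.18 and the cytotoxic cell receptor Cd8a from 11.15 ± 0.14 to 9.87 ± 0.16, falls of 1.55 and 1.28. Cd28, the co-stimulatory receptor, fell by 1.45, Cd8b by 1.39, Themis by 1.31 and Ccr7, the receptor that directs naive cells to lymph nodes, by 1.29. Cd3g and Cd3e, chains of the T cell receptor complex, fell by 1.26 and 1.24. Ctla4 was not called, at -0.19 (FDR = 0.18).

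NK cell and cytotoxic genes fell in 18 of 28 measured members, rose in 3 and had a median of -0.45. Klrk1, the receptor NKG2D, went from 10.80 ± 0.18 to 9.45 ± 0.31, Gzmb, granzyme B, from 11.32 ± 0.18 to 10.40 ± 0.38 and Prf1, perforin, from 10.39 ± 0.19 to 9.58 ± 0.42. The 3 that rose were Cst7, cystatin F, by 1.09, and the activating receptors Ncr3 and Ncr1, by 0.82 and 0.34. Neither Tbx21, the factor T-bet, at -0.22 (FDR = 0.10), nor Ifng, interferon gamma, at 0.12 (FDR = 0.35), was called.

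Monocyte genes moved both ways, with 14 of 26 measured members lower, 8 higher and a median of -0.44. After Adgre1 the largest falls were those of Nr4a1, a nuclear receptor that patrolling monocytes need, from 9.87 ± 0.16 to 8.39 ± 0.26, Ly86 by 1.44, the fractalkine receptor Cx3cr1 by 1.35 and the M-CSF receptor Csf1r by 1.05. Mrc1, the mannose receptor, rose from 6.81 ± 0.20 to 8.08 ± 0.40. Cd36 was not called, at -0.06. In the dendritic cell list 7 of 14 measured members fell, 3 rose and the median was -0.28. Cd209a, Irf4 and Cd83 fell by 1.17, 0.95 and 0.88, and the lectins Clec9a and Clec10a rose by 1.22 and 0.87. Flt3 and Tcf4 were not called.

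Of 16 basophil, eosinophil and mast cell genes 6 fell, 2 rose and the median was -0.12. Il5ra, the IL-5 receptor of eosinophils and basophils, fell from 7.31 ± 0.21 to 5.54 ± 0.32, the basophil protease Mcpt8 from 6.32 ± 0.41 to 4.93 ± 0.28, and Ms4a2, a chain of the high-affinity IgE receptor, by 0.83. The eosinophil granule genes Epx and Prg2 were not called, at 0.13 and 0.11, and Rnase2 and Siglec5 rose by 0.65 and 0.48.

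**Figure D3:**
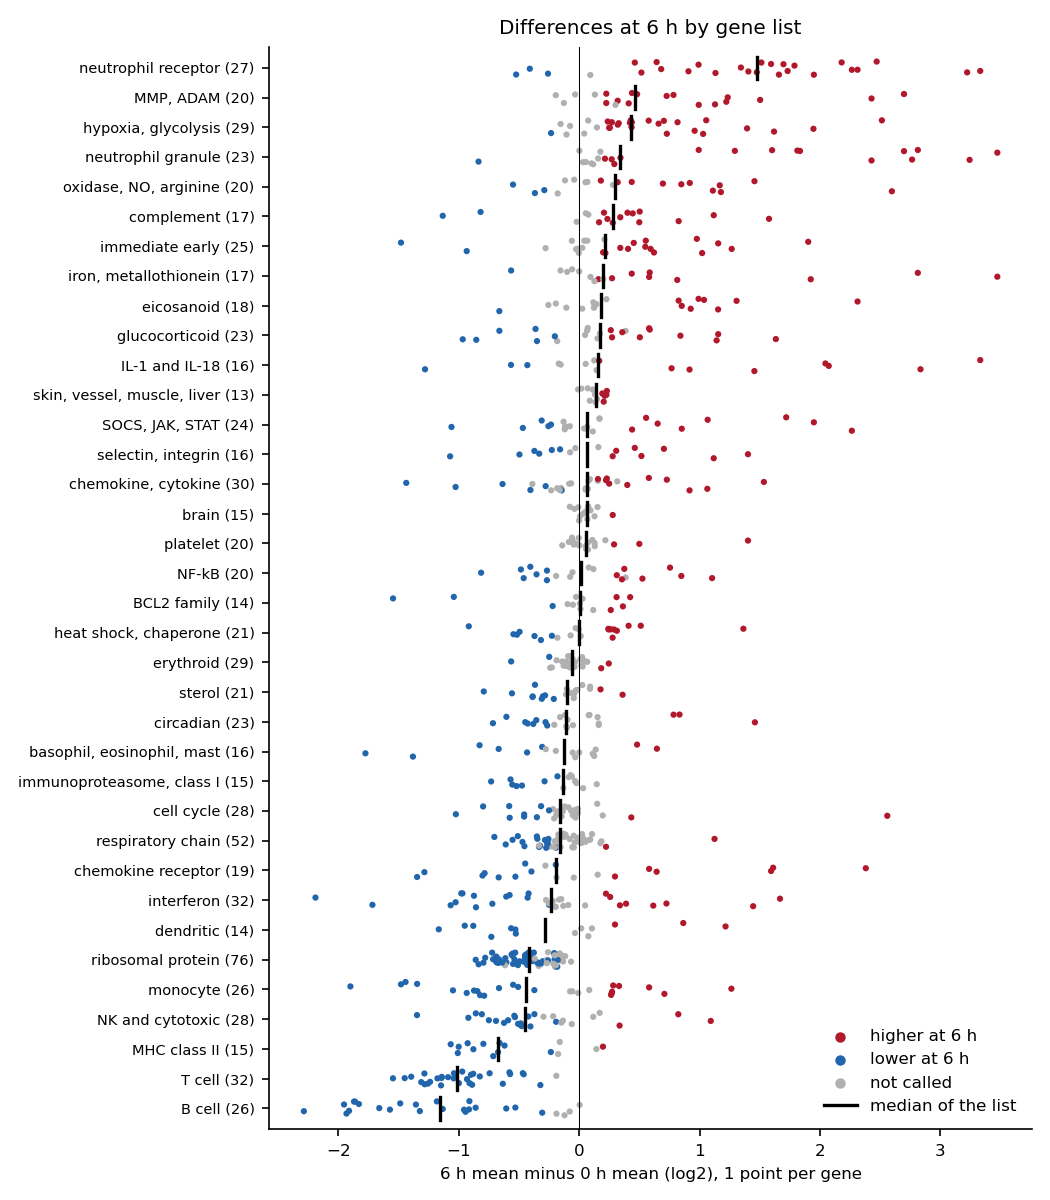
Differences between 6 h and 0 h (log2, x axis) are drawn for every measured member of each gene list (rows, number measured in brackets), red where higher, blue where lower and grey where not called, with the list median as a black bar. The medians run from -1.16 for B cell genes to 1.48 for neutrophil receptor genes, and the platelet and erythroid lists lie near 0.

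Genes of antigen presentation fell in the main. Of 15 MHC class II genes 11 fell, 1 rose and the median was -0.67. Ciita, the master regulator of class II, went from 8.44 ± 0.17 to 7.44 ± 0.08 and Cd74, the invariant chain, from 12.18 ± 0.14 to 11.26 ± 0.17. The co-stimulatory ligand Cd86 fell by 1.07, RT1-DOb by 1.01 and RT1-Da by 0.88, and the 1 rise was that of RT1-Bb, by 0.20. In the list of the immunoproteasome and class I pathway, 17 genes on 15 distinct probe sets, 7 fell, none rose and the median was -0.13. The activator subunits Psme2 and Psme1 fell by 0.73 and 0.52 and the catalytic subunits Psmb10 and Psmb8 by 0.56 and 0.47. B2m, Tap1 and Psmb9 were not called, at -0.02, -0.07 and -0.09. Class I genes are near-identical copies, and RT1-A1, RT1-A2 and RT1-A3 share a probe set here.

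Of 32 measured interferon-response genes 14 fell, 8 rose and 10 were not called, with a median of -0.23, and the rises are to be read against the 20.2% of all probe sets that rose. Mx1 went from 10.44 ± 0.16 to 8.73 ± 0.11 and was, after Mx2, the member with the largest fall. Oas1b, a member of the family that senses double-stranded RNA, went from 7.92 ± 0.19 to 6.86 ± 0.23 (FDR = 8.21e-08), the chemokine Cxcl10 from 8.09 ± 0.24 to 7.06 ± 0.21, and Ifi44l and Ifi44 fell by 0.98 and 0.97. Ifitm3 and Ifitm1, which block the entry of viruses, went the other way, from 8.34 ± 0.41 to 10.01 ± 0.41 and from 10.10 ± 0.21 to 11.55 ± 0.21, and Ifit3 and Isg15 rose by 0.73 and 0.62. Of the factors that carry the signal, Stat2, Irf9 and Irf7 were not called, at -0.17, -0.09 and -0.19. Against 3 h, 16 of the 32 were lower at 6 h and 1, Ifitm1, was higher, where 1.24% and 1.43% of all probe sets were.

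**Figure D4:**
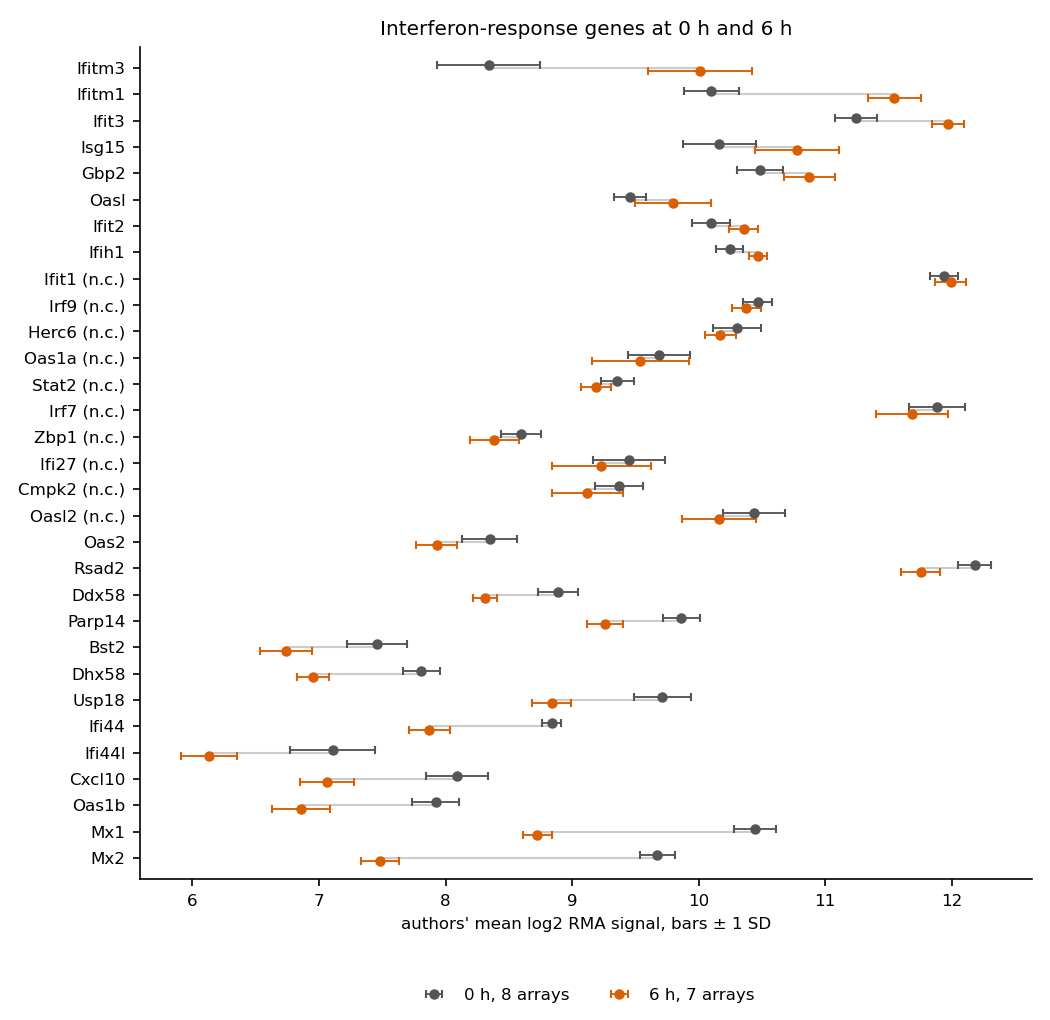
The authors' mean log2 RMA signal (x axis, bars 1 SD) of measured interferon-response genes is drawn in grey at 0 h (8 arrays) and in orange at 6 h (7 arrays), ordered by the difference, and n.c. marks genes that were not called. Ifitm3 and Ifitm1 at the top lie to the right of their 0 h values and Mx1 and Mx2 at the bottom to the left.

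Promoters of a fallen and a risen member are shown because both hold the same motif. The sequences are those of RefSeq (assembly GRCr8), 250 bases before to 50 after the gene start, read along the gene's own strand, which is the minus strand for both genes, chr12:41395803-41396102 for Oas1b and chr1:205541709-205542008 for Ifitm3. Capitals mark matches to GAAANNGAAA, the core of the interferon-stimulated response element, searched on both strands.

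Oas1b promoter: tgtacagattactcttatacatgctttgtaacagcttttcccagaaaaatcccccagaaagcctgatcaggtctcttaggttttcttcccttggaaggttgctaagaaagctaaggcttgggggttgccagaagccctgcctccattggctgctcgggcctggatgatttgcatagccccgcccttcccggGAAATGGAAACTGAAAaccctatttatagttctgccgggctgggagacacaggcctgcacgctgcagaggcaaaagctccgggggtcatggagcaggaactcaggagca
Ifitm3 promoter: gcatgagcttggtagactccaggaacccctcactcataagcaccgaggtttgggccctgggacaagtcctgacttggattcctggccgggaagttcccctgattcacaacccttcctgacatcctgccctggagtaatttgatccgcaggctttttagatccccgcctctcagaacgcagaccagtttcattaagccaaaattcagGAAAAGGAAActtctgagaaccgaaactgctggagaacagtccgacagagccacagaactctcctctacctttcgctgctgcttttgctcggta

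In Oas1b the matches overlap. A RefSeq promoter was matched for 21 of the 32 genes. The motif was found in 4 of 5 that rose, 7 of 8 that fell and 4 of 8 that were not called, and in 3.92% of all 33469 promoters. Genes with and without the motif were found in each direction, and a match describes the window only.

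Genes that answer to glucocorticoids, the stress hormones, rose in 10 of 23 measured members and fell in 6, with a median of 0.17. Anxa1, an anti-inflammatory protein that neutrophils hold in quantity, went from 10.61 ± 0.26 to 12.25 ± 0.08, the phosphatase Dusp1 rose by 1.16 and Cdkn1a by 1.14. Fkbp5, a co-chaperone of the receptor, went from 8.56 ± 0.22 to 9.40 ± 0.19. Tsc22d3, also called GILZ, was not called at 0.07 (FDR = 0.59), nor were Sgk1 at 0.05 and Per1 at 0.15. The receptor itself, Nr3c1, fell by 0.66, Sesn1 by 0.85 and Hsd11b1, which regenerates the active hormone, by 0.97. Of 23 measured clock genes 8 fell, 3 rose and the median was -0.11. Arntl, which encodes BMAL1, fell by 0.60, Bhlhe40 by 0.72, Cry1 by 0.45, Cry2 by 0.43 and Clock by 0.38, and Usp2, Nfil3 and Per2 rose by 1.46, 0.83 and 0.78. The labels give no clock time for any blood sample.

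Immediate early genes rose in 14 of 25 measured members and fell in 2, with a median of 0.22. Ier3 went from 6.61 ± 0.25 to 8.52 ± 0.32 and Jun from 7.59 ± 0.36 to 8.86 ± 0.23. Egr1 and Fos rose by 1.02 (FDR = 0.014) and 0.98 (FDR = 0.0028) with wide SDs at 0 h, 0.76 and 0.65. Nr4a1 and Klf4 were the falls, by 1.48 and 0.93, and Atf3, Egr2 and Fosb were not called. Genes of the NF-kB system rose in 7 of 20 measured members and fell in 7. Birc3, an inhibitor of apoptosis, rose by 1.10, the mitochondrial superoxide dismutase Sod2 by 0.85 and Nfkbiz by 0.76, while the subunit genes Rel and Nfkb1 fell by 0.81 and 0.46. Nfkbia was not called at 0.39 (FDR = 0.070).

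In the list of cytokine receptors, JAK, STAT and SOCS genes 8 of 24 measured members rose and 5 fell, 3 after quantile normalization. Socs3, the feedback inhibitor of IL-6 and G-CSF signalling, went from 7.71 ± 0.16 to 9.43 ± 0.33 and Stat3 from 9.26 ± 0.12 to 10.32 ± 0.14. Stat5b rose by 0.85, and Stat4, which T and NK cells use to answer IL-12, fell by 1.06. Socs1, Jak1 and Jak2 were not called, at 0.17, -0.08 and 0.04. Of 30 cytokines and chemokines 10 rose, 6 fell and the median was 0.06. Tnf went from 7.68 ± 0.35 to 9.22 ± 0.36, the IL-6 family cytokine Osm from 7.31 ± 0.41 to 8.38 ± 0.27, and Ccl2, the monocyte attractant, rose by 0.73 (FDR = 0.037) with SDs of 0.65 and 0.55. Cxcl16 fell by 1.44 and Tnfsf10, also called TRAIL, by 0.64. The neutrophil attractant Cxcl1, the growth factor Csf3 and Il10 were not called, at 0.16, 0.05 and -0.18, and Il6 fell by 0.28.

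Chemokine receptors fell in 9 of 19 members and rose in 6, with a median of -0.19. Ccr1 rose from 9.32 ± 0.35 to 11.70 ± 0.12 (5.21-fold, FDR = 3.71e-11) and Cxcr2 by 1.59. Receptors of lymphocytes and of basophils and eosinophils fell, Ccr6 by 0.80, Cxcr4 by 0.79 and Ccr3 by 0.67. In the BCL2 family 4 of 14 measured members rose and 3 fell. Bcl2, which keeps lymphocytes alive, went from 10.69 ± 0.14 to 9.15 ± 0.17 (2.92-fold lower, FDR = 2.82e-11) and Bcl2a1 from 10.01 ± 0.14 to 8.97 ± 0.37. Bcl2l1 rose by 0.42, and Mcl1 and Bax were not called at -0.03 and 0.01. Complement genes rose in 12 of 17 measured probe sets and fell in 2, with a median of 0.28. Cfd, factor D, rose from 6.65 ± 0.14 to 8.23 ± 0.26 and C3 by 0.83, and the receptors Cr2 of B cells and C3ar1 fell by 1.13 and 0.82.

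Ribosomal protein genes fell in 55 of 76 members, none rose, and the median was -0.42. The largest differences were -0.86 in Rps15a (10.76 ± 0.44 and 9.90 ± 0.49), -0.83 in Rpl3 and -0.79 in Rps27. Genes of the respiratory chain fell in 17 of 52 members and rose in 2, with a median of -0.16. After quantile normalization 10 fell, and with centred means 1 rose. Uqcrc2 of complex III fell by 0.70 and the ATP synthase genes Atp5c1 and Atp5a1 by 0.61 and 0.55, while Ndufb3 of complex I rose from 9.06 ± 0.46 to 10.18 ± 0.47. Cell cycle genes fell in 9 of 28 measured members, rose in 2 and had a median of -0.16. The replication helicase genes Mcm3 and Mcm7 fell by 1.02 and 0.80 and the sliding clamp Pcna by 0.58. Rrm2, a subunit of ribonucleotide reductase, went against the list from 8.62 ± 0.27 to 11.18 ± 0.23 (5.90-fold higher, chromosome 6), and a probe set annotated with the same symbol on chromosome 19 rose by 2.74. The proliferation marker Mki67 was not called at -0.05 (FDR = 0.77), nor was Top2a at -0.15.

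Most platelet genes were not called. Of 20 measured members 3 rose, none fell and the median was 0.06. Pf4 differed by -0.06 (SDs 0.08 and 0.11) and Ppbp stood at 12.20 ± 0.33 and 12.20 ± 0.31. Beside Selp the rises were those of P2ry1 and Sdpr, by 0.50 and 0.29. In the erythroid list 2 of 29 measured members rose, 2 fell and the median was -0.06. Tfrc and Rhag fell by 0.56 and 0.25, Ermap and Epor rose by 0.25 and 0.18, and Alas2, the first enzyme of haem synthesis in red cell precursors, was not called at -0.11 (FDR = 0.11). The 2 rises were not called when the means were centred on their median, and 5 members then fell. Of 15 genes of neurons and glia 1 rose, S100b by 0.28, and the median was 0.06. Gfap, the astrocyte protein, stood at 6.89 ± 0.20 and 6.93 ± 0.24 and Snap25, of synapses, at 5.03 ± 0.06 and 4.96 ± 0.22. Of 13 measured genes of skin, vessel, muscle and liver 5 rose by 0.19 to 0.23 and none fell, with a median of 0.14, and albumin, Alb, was not called.

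The array also holds probe sets at microRNA genes. They measure RNA transcribed from the locus, host transcripts included, and not the mature microRNA. Of 271 such probe sets 89 were higher at 6 h, 8 were lower and the median was 0.14. Over all probe sets 20.2% were higher and 18.3% lower. Of the 271, 131 lie in the dimmest 25% of all probe sets. In that dimmest 25%, 1187 of 6899 probe sets were higher and 248 lower, with a median of 0.08. A rise of at least 1 was found in 7 of the 271 and no fall was as large. MicroRNAs act through their seed, bases 2 to 8, which pairs with target messenger RNAs. The mature sequences of loci that rose or fell are given from RefSeq (GRCr8), with the seed in capitals, to show which of them share a seed.

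miR-223-3p: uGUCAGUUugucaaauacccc
miR-21-5p: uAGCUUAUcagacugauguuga
miR-147: gUGUGCGGaaaugcuucugcua
miR-221-3p: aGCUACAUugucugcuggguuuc
miR-222-3p: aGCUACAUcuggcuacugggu
miR-290: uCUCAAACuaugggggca
miR-292-5p: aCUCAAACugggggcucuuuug
miR-292-3p: aAGUGCCGccagguuuugagugu
miR-291a-3p: aAAGUGCUuccacuuugugugcc
miR-342-3p: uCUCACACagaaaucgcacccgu
miR-186-5p: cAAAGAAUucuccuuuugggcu

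Mir223, whose product is abundant in neutrophils, rose from 9.66 ± 0.48 to 11.34 ± 0.21 (chrX:66205958-66206067 in rn5, FDR = 2.70e-07). The probe set shared by Mir21 and Vmp1, the gene next to it, went from 7.42 ± 0.33 to 9.19 ± 0.24. Mir147 rose by 1.14 from 10.24 ± 0.30 to 11.38 ± 0.10. Mir221 and Mir222 lie 458 bases apart on the X chromosome and share the seed GCUACAU. Mir221 rose by 1.29 and Mir222 by 0.40, from 5.63 ± 0.11 to 6.02 ± 0.18.

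Mir290, Mir291a and Mir292 stand in a row on the minus strand of chromosome 1, and miR-290 and miR-292-5p share the seed CUCAAAC. Their probe sets rose by 1.74, 1.65 and 2.15, the last from 8.05 ± 0.40 to 10.21 ± 0.23 (chr1:63524481-63524562). In rodents this cluster is known from embryonic stem cells. On the opposite strand Nlrp12, a regulator of inflammation in myeloid cells, ends 3403 bases before Mir292 and rose from 7.80 ± 0.29 to 10.13 ± 0.20. Whether the signal at the cluster belongs to a longer transcript of a neighbouring gene was not tested. Among the 8 falls, Mir186 went from 5.31 ± 0.36 to 4.56 ± 0.51 and Mir342 from 7.76 ± 0.43 to 7.05 ± 0.24.

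Blood at 3 h and at 6 h differed in few probe sets. At 6 h 396 were higher than at 3 h (1.43% of those tested) and 341 lower (1.24%), 19 and 2 of them by at least 1. These counts depended on the variance estimate, with 645 higher and 674 lower when it was pooled over the 6 time points, 252 and 175 without moderation, and 198 and 128 under Welch's test. Of the probe sets that differed from 0 h at 6 h, 526 also differed from 3 h. Among these 287 were above both and 158 below both, 48 were above 0 h but had come down since 3 h, and 33 were below 0 h but had come up. A further 211 differed from 3 h and not from 0 h. A probe set not called between 3 h and 6 h is not shown to be equal. The comparisons with 0 h and with 3 h share the 6 h means. An error in a 6 h mean moves both differences the same way, which favours the counts above both and below both.

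Among genes with a single symbol the step up was largest in Nek10, a kinase of the NIMA family, at 7.58 ± 0.27 before the stroke, 7.53 ± 0.29 at 3 h and 9.58 ± 0.19 at 6 h. Its 3 probe sets rose from 3 h to 6 h by 1.70 to 2.06. Car4, a membrane-bound carbonic anhydrase, stepped up by 1.69 from 8.17 ± 0.16 to 9.86 ± 0.53, Lcn2 by 1.57, Cpne8 by 1.38, Il22ra2, the soluble binding protein of IL-22, by 1.35 and Adgb by 1.29. Steps down, among genes with a single symbol, had different courses. The receptor Mrgprx3 was at 6.69 ± 0.20 before, 8.92 ± 0.17 at 3 h and 7.72 ± 0.22 at 6 h, and Rab44, a Rab GTPase, and Rnase2, a ribonuclease, also came down from higher values at 3 h, by 0.81 and 0.79. Oas1b and Ceacam1 were near their 0 h means at 3 h and fell from there, by 0.96 and 0.90, and Mx2 fell further by 0.86.

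**Figure D5:**
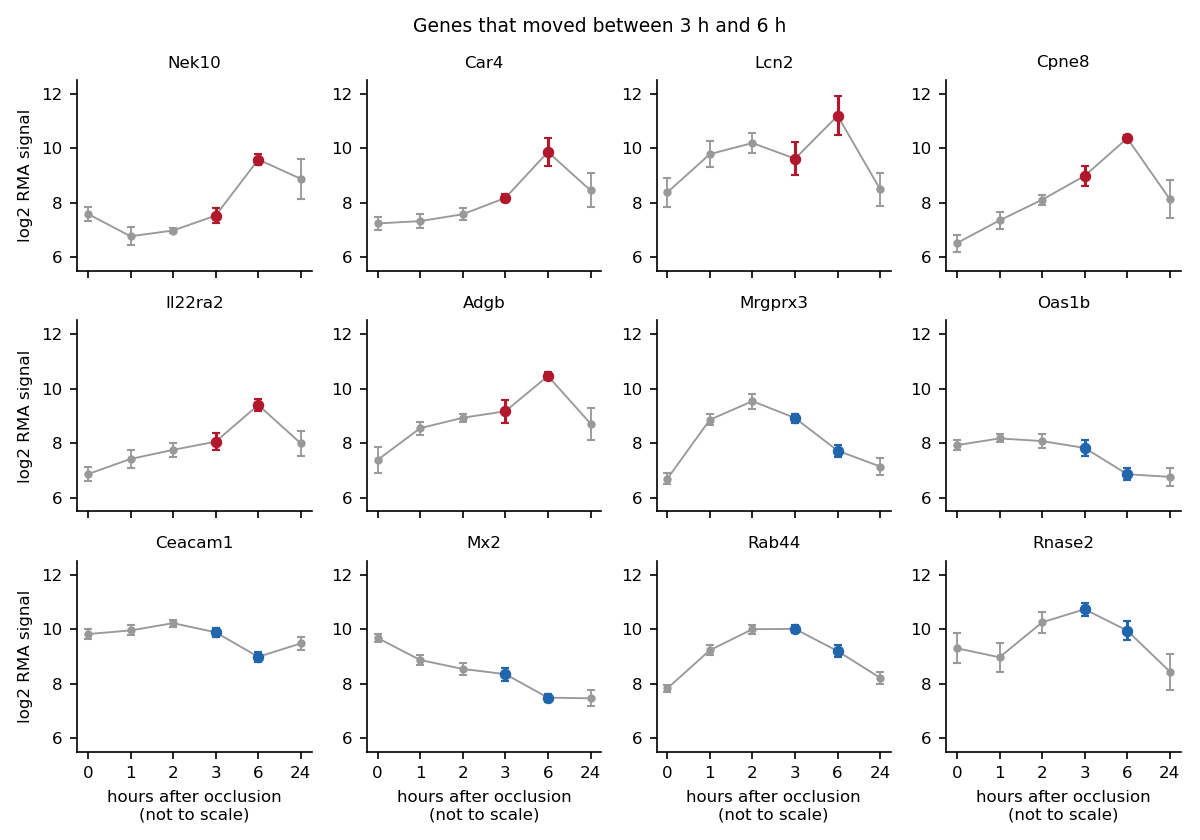
The authors' mean log2 RMA signal (y axis, bars 1 SD) is drawn over the 6 time points (x axis, hours after occlusion, not to scale) for the 6 largest steps up and the 6 largest steps down between 3 h and 6 h among probe sets with a single, non-provisional gene symbol that differed from both 0 h and 3 h, those 2 points coloured red or blue. Nek10 is at 7.53 at 3 h and 9.58 at 6 h, and Mrgprx3 is at 8.92 and 7.72.

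By list, the step from 3 h to 6 h was upward in 5 of 29 hypoxia and glycolysis genes and downward in none. Of 23 neutrophil granule genes 4 went up and 1 down, and of 29 erythroid genes 4 went down and none up. The list counts of this step are to be read against 1.43% of all probe sets higher and 1.24% lower. They rest on calls against 3 h, whose number depended on the variance estimate. Of the B cell list Ebf1, Ms4a1, Cd79b and Fcmr were higher at 6 h than at 3 h, by 0.52, 0.55, 0.48 and 0.32, though still below 0 h. Cd3e and Il7r of the T cell list were lower than at 3 h, by 0.32 and 0.43. The class II genes Cd74 and RT1-Da were higher by 0.52 and 0.56. Neutrophil receptor genes were higher in 4 of 27 and lower in none, and Fkbp5 was lower than at 3 h by 0.73.

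From 6 h to 24 h 2361 probe sets rose (8.56% of those tested) and 2043 fell (7.40%), 36 and 208 of them by at least 1. Blood at 24 h was drawn from the heart under an overdose of anaesthetic, so time and the site of sampling cannot be told apart. Of the 5580 probe sets higher at 6 h than at 0 h, 1591 were lower at 24 h than at 6 h. A further 10 of them were higher still. Of the 5060 lower at 6 h, 1614 were higher at 24 h and 22 lower still. Both comparisons use the same 6 h means, so an error in a 6 h mean pushes the later difference the opposite way. These counts alone therefore do not show a return towards 0 h. Neutrophil receptor genes came down in 22 of 27, B cell genes came up in 21 of 26 and T cell genes in 19 of 32. Cpne8 fell by 2.24 to 8.12 ± 0.69, Il1r2 by 2.12 to 9.89 ± 0.62, and Ms4a1 came up by 1.32 to 9.59 ± 0.30. Mx2 stayed at 7.46 ± 0.29. The SD of Cpne8 was 0.69 at 24 h against 0.11 at 6 h, and that of Il1r2 0.62 against 0.13. Between 6 h and 24 h 20 of 29 erythroid genes rose, and Tfrc, which had fallen at 6 h, rose by 1.78.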

How the data were processed

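Gene expression in blood was measured on RaGene 1.0 ST arrays. Per the labels and the authors' methods, RNA was amplified (NuGen), samples were randomized over work-up batches, and the deposited values are log2 signals normalized together by RMA, of which the table used here holds the authors' mean and SD at each time point. Coordinates are those of the deposited rn5 annotation, and the submitters' processing notes name limma without a version. The deposited fold changes, p-values, FDRs and F-tests of the authors' own comparisons were not used, nor were 47 columns of single arrays whose names match no sample label.

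From the means, SDs and array numbers (8 at 0 h, 3 h and 24 h, 7 at 6 h), differences were tested with limma 3.58.1 in R 4.3.3. The pooled variance of the 2 groups (13 residual degrees of freedom) was moderated with squeezeVar over all probe sets, two-sided, and p-values were adjusted by Benjamini-Hochberg over 27596 probe sets, with calls at FDR below 0.05. Groups were compared as independent although the same rats were bled at each time. The test was tried on simulated data of the 6 h and 0 h comparison, with 27596 probe sets of which 200 were changed. It called 84 of 100 changed by 0.5 and 98 of 100 changed by 1, with 5.7% false calls. In the data 38.6% of probe sets were called, so the 5.7% describes the simulation and not the error of the comparison itself. Intervals are 95%, and the number of arrays limits precision.

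The named genes are the 12 largest rises and falls with a single symbol, the 6 largest steps each way between 3 h and 6 h with a single symbol, the 6 largest differences against the direction of a gene's list, and in each list up to 8 called members by size plus defining members that were not called. Lists and members were chosen with earlier results of these data known. Named outside the rule, after their values were seen, were single falls or rises that complete a small count, Elane, Ifit3, Isg15, Irf9, Il6, Il7r, Fdft1, Hspa1a, Hsp90b1, a probe set without a symbol, the microRNA genes and their neighbour Nlrp12. Each list was described by counts and its median, with no set test. A list gene without a matching symbol was not analysed here, and a few members that the rule names are counted but not reported by name. Sequences come from RefSeq GRCr8. Alternatives were other variance estimates, Welch's test, centring or quantile normalization of the means, a filter on dim probe sets and a minimum size.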

Additional observations from a re-analysis of the deposited data

How the results depend on the processing

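The 39 genes named for the largest rises, falls and steps or for going against their list were rerun at 6 h against 0 h. They kept their direction and call with variances pooled over the 6 time points, under Welch's test, and with means centred or quantile-normalized. They had been picked by size or call in the same means, so this outcome was largely set beforehand and is no independent check. Their steps from 3 h to 6 h were not rerun. Single list members named for other reasons were not run one by one. The balance of calls against 0 h turned from 5580 higher and 5060 lower to 4162 and 5545 with centring, 4323 and 4585 with quantile normalization, and 4549 and 4911 without dim probe sets. List medians near 0 changed sign, that of NF-kB genes (0.01) to -0.02 and of the BCL2 family (0.01) to -0.02 with centring, and that of chaperones (-0.00) to 0.02 with quantile normalization. No paired analysis was possible because the columns of single arrays are not matched to rats, so the planned fit with the rat as a block was not run, and leaving out single arrays was not possible from means and SDs. Centring moved all differences by -0.03, and quantile normalization by -0.10 to 0.14, and the number of arrays limits what small differences can show.

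With a minimum size of 1 there were 399 rises and 292 falls at 6 h against 0 h, 19 and 2 against 3 h, and 36 and 208 from 6 h to 24 h. The counts against 3 h were 645 higher and 674 lower with pooled variances, 252 and 175 without moderation, and 198 and 128 under Welch's test. Leaving out the dimmest 25% of probe sets moved the median of neutrophil granule genes from 0.34 to 0.67 and that of the IL-1 and IL-18 family from 0.16 to 0.47, and raised the falls of eicosanoid genes from 1 to 2. Centring gave 0 rises and 5 falls in the erythroid list (2 and 2 before), 2 falls in the eicosanoid and 2 in the hypoxia list (1 each before), and 1 rise in the respiratory chain (2 before). Quantile normalization gave 2 rises in MHC class II (1 before), 1 in the immunoproteasome list (0 before), 2 in the brain list (1 before) and 1 in the sterol list (2 before). It gave 3 falls in the SOCS list (5 before), 0 in the hypoxia list (1 before), 2 in the iron list (1 before), 10 in the respiratory chain (17 before) and 4 in the sterol list (9 before). Pooled variances gave 5 falls in the erythroid list (2 before), 5 in the oxidase list (3 before) and 2 in the eicosanoid list (1 before). The cause of these shifts was not tested.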

Other observations

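In the list of sterol synthesis and uptake 2 of 21 measured members rose at 6 h, 9 fell (1 and 4 after quantile normalization) and the median was -0.10, but the step from 3 h ran the other way in some of them. Cyp51, Msmo1 and Fdft1, enzymes of cholesterol synthesis, were higher than at 3 h by 0.56, 0.53 and 0.53, while against 0 h Cyp51 and Msmo1 were lower by 0.39 each and Fdft1 was not called. Insig1, which holds the sterol sensor in the endoplasmic reticulum, fell from 9.42 ± 0.25 to 8.63 ± 0.34. From 6 h to 24 h none of the 21 rose and 8 fell.

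Of 21 measured heat shock and chaperone genes 9 rose and 7 fell. Xbp1, a factor of the unfolded protein response, rose from 8.74 ± 0.19 to 10.11 ± 0.19, and of the chaperones of the endoplasmic reticulum the disulfide isomerase Pdia6 rose by 0.51 and Hspa5 by 0.41, while Hsp90b1 was not called, at 0.01 (FDR = 0.90). The mitochondrial chaperones Hspe1 and Hspd1 fell by 0.92 and 0.49. In the cytosol Hsp90ab1 fell by 0.52 and the stress-induced Hspa1a rose by 0.24, and the heat shock factor gene Hsf1 fell by 0.55.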
